A study of Mus musculus with 10 samples.

Results

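*H2-Aa*, *H2-Ab1*, *H2-Eb1*, *H2-DMa*, *H2-Oa*, *Cd74* and *Ciita* serve antigen presentation by MHC class II. These 7 genes were taken by their gene symbols, in a choice made with earlier results of these data known. Every probe set that the platform annotation gives to exactly 1 of these symbols was taken. This gave 15 probe sets for 7 genes of 18193 genes with 1 symbol on the array. RNA of the abdominal aorta was measured in 6 KCASP1Tg mice and 4 wild-type (WT) mice at 4 months of age on Affymetrix GeneChip mouse arrays, with 1 array per mouse. KCASP1Tg mice carry human caspase-1 under the keratin 14 promoter, which is active in the basal cells of the epidermis, and they develop dermatitis spontaneously. The transgene is thus under an epithelial promoter and not a vascular one. The WT mice are littermates on the C57BL/6 background, and the methods describe the animals as female. The question of the comparison is how the aorta differs in gene expression when the skin is chronically inflamed. The methods state a smaller number of mice than there are arrays, so all 10 arrays were used. The mice are named KCASP1Tg 1 to KCASP1Tg 6 and WT 1 to WT 4 after the numbers in their titles.

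MHC class II molecules show peptides from proteins taken up by endocytosis to CD4+ T cells. B cells, dendritic cells and macrophages carry them at rest, and interferon gamma can bring them up in other cells, vascular cells among them. An alpha and a beta chain pair in the endoplasmic reticulum with the invariant chain, which guards the groove. H2-DM then helps peptide replace the last fragment of the invariant chain in the endosome, and H2-O restrains H2-DM, mostly in B cells. The class II transactivator CIITA switches these genes on together, acting through proteins bound to the X and Y boxes of their promoters.

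The signal of a probe set is a linear intensity scaled so that the arrays have the same trimmed mean. Testing was done by limma on log2 values and was limited to the 26242 probe sets that reached 100 in 4 or more mice. A probe set was called at a Benjamini-Hochberg adjusted p under 0.05 over all of them. Signals of different probe sets were not read as relative amounts of their RNAs, since probes differ in how well they bind. Sums and differences of probe sets are compared only between mice, and a sum rests most on its brightest probe sets. KCASP1Tg 4 stood apart from the other mice. The summed signal of 3 lymph node stroma genes was 32093 in KCASP1Tg 4, 2234 to 5099 in the 5 others of its group and 285 to 1359 in WT mice. Outside KCASP1Tg 4 most of this sum was *Cxcl13*. The summed signal of 6 smooth muscle genes, which checks the labelled tissue, was 31012 in KCASP1Tg 4, 67098 to 81429 in the 5 others of its group and 70984 to 81449 in WT mice. Liver genes had summed signals of 137 to 3128 in KCASP1Tg mice, against 94729 in WT 1, 46399 in WT 3 and 1385 and 5376 in WT 2 and WT 4. Heart muscle genes summed to 29566 in KCASP1Tg 1, 16759 in KCASP1Tg 2 and 58515 in WT 4, and lay between 472 and 3207 in the other mice. Results are therefore given with KCASP1Tg 4 and without it. In RNA of a whole vessel, fewer cells of a type and less RNA per cell cannot be told apart.

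The class II signals set KCASP1Tg 4 apart from the other mice, and no difference between the genotypes was called. The intervals given below are wide, so equal levels in the 2 genotypes are not shown. Of the 12 tested probe sets, limma called 0 higher in KCASP1Tg mice, where 0.0686% of all tested probe sets were called higher, and 0 lower, where 0% of all were. None of the 12 had an unadjusted limma p under 0.05, a level that 4.52% of all tested probe sets passed as higher in KCASP1Tg mice. The exact Mann-Whitney test called 0 after adjustment, and 1 of the 12, the *Cd74* probe set, had an unadjusted p under 0.05, a level that 4.75% of all tested probe sets passed as higher in KCASP1Tg mice. In 0 of the 15 probe sets did the groups separate without overlap, against 1.98% of all tested probe sets with every KCASP1Tg mouse above every WT mouse. KCASP1Tg 4 was the highest mouse on 14 of 15 probe sets and on 12 of the 12 tested, where it was highest on 23.2% of all tested probe sets. On the same 12 its signal was at least 2 times that of every other mouse, which held for 2.43% of all tested probe sets. The tested *H2-Oa* and *Ciita* probe sets passed the filter only with KCASP1Tg 4 included, and several of the 12 measure the same gene.

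**Figure D1:**
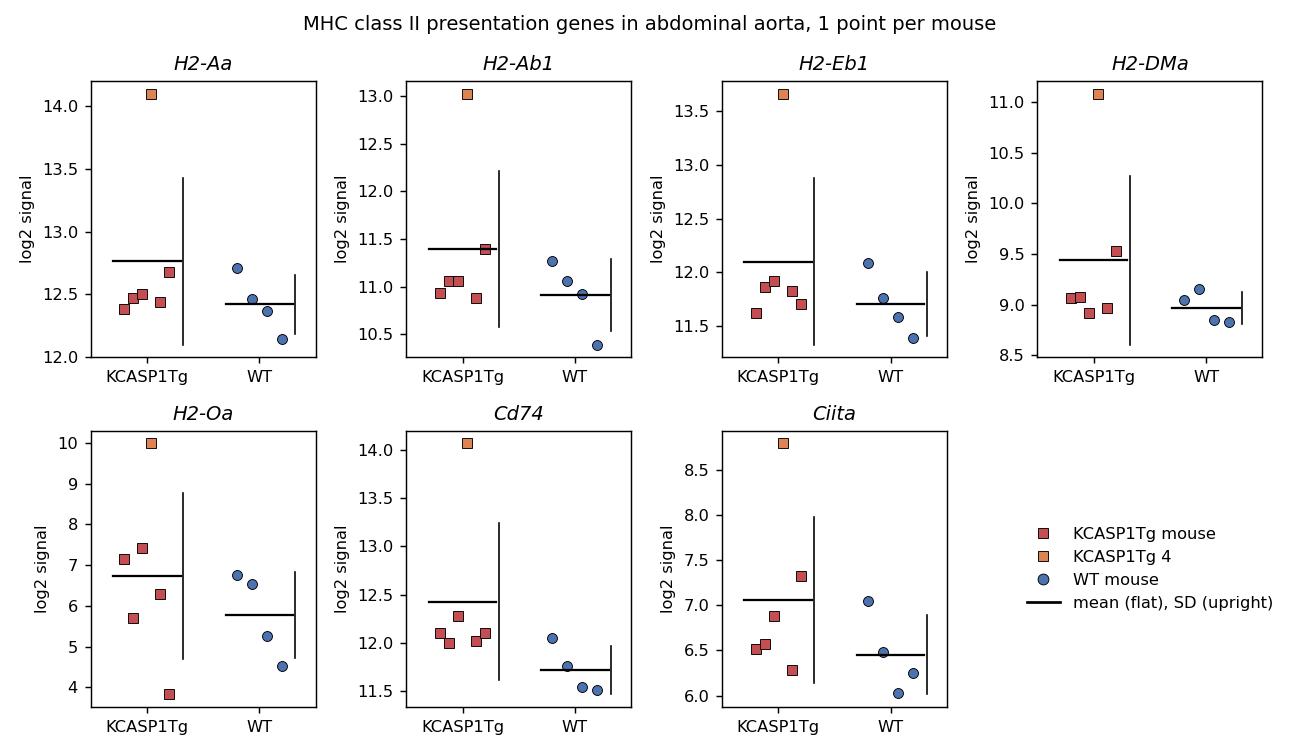
Signal of the 7 genes in each mouse (log2 of the signal of the brightest probe set on the vertical axis, KCASP1Tg left and WT right), with the mean as a flat line and the SD as an upright line (n = 6 and 4). KCASP1Tg 4, in orange, is the highest point in all 7 panels, and the groups overlap in each of them.

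The classical chains were the first members looked at. *H2-Aa* codes for the alpha chain of the I-A molecule and lies on chromosome 17 from 34282744 to 34287823 (GRCm38.p6, as are all positions here). Its brightest probe set had signals of 5327, 5662, 5810, 17556, 5563 and 6547 in KCASP1Tg 1 to 6, against 6682, 5629, 5272 and 4529 in WT 1 to 4. KCASP1Tg 4 was above all WT mice, and the other 5 were inside the WT range. The mean was 7744 ± 4824 in KCASP1Tg mice and 5528 ± 895 in WT mice (SD, n = 6 and 4). The log2 fold change of KCASP1Tg over WT was 0.34 with a 95% interval of -0.36 to 1.04 (limma, adjusted p = 0.878). Without KCASP1Tg 4 it was 0.08, with an interval of -0.21 to 0.36. The remaining *H2-Aa* probe sets behaved in the same way in KCASP1Tg 4, with signals of 4.03, 4.44 and 4.48 times the median of the other 9 mice, where the brightest had 3.12 times. The dimmest of them reached 620 in KCASP1Tg 4, 111 to 195 in the 5 others of its group and 128 to 237 in WT mice.

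*H2-Ab1*, the beta chain that pairs with H2-Aa, lies beside it on chromosome 17 (34263227 to 34269418). Its signals were 1954, 2127, 2132, 8353, 1891 and 2695 in KCASP1Tg 1 to 6, against 2472, 2140, 1938 and 1342 in WT 1 to 4. KCASP1Tg 4 and KCASP1Tg 6 were above all WT mice and the groups overlapped. This gave a log2 fold change of 0.48 with an interval of -0.40 to 1.36 (limma, adjusted p = 0.85), and 0.15 without KCASP1Tg 4. The other 2 *H2-Ab1* probe sets had 4.95 and 5.42 times the median of the other 9 mice in KCASP1Tg 4, and 3.93 times was found for the first.

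*H2-Eb1* codes for the beta chain of I-E and lies further along the chromosome (34305867 to 34316674). It had 1 probe set, with signals of 3145, 3740, 3885, 12953, 3637 and 3341 in KCASP1Tg 1 to 6, against 4364, 3476, 3083 and 2690 in WT 1 to 4. Apart from KCASP1Tg 4, the highest mouse was WT 1. KCASP1Tg over WT, the log2 fold change was 0.39 with an interval of -0.42 to 1.21 (limma, adjusted p = 0.883), and 0.08 without KCASP1Tg 4. The alpha chain partner *H2-Ea* carries a null allele in C57BL/6 mice. Its brightest probe set had signals of 18 to 50.2 in KCASP1Tg mice, against 16.1 to 28.9 in WT mice, and 21.1 in KCASP1Tg 4. It was the one measured class II chain in which KCASP1Tg 4 was near the other mice, at 1.01 times their median.

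The peptide editors showed the same mouse. *H2-DMa* codes for the alpha chain of H2-DM (chromosome 17, 34119693 to 34139101), and the signals of its brighter probe set were 535, 539, 482, 2170, 502 and 740 in KCASP1Tg 1 to 6, against 528, 570, 461 and 454 in WT 1 to 4. KCASP1Tg 4 and KCASP1Tg 6 were above all WT mice. The log2 fold change was 0.47 with an interval of -0.38 to 1.32 (limma, adjusted p = 0.847), and 0.14 without KCASP1Tg 4. A second, dim *H2-DMa* probe set was below 100 in every mouse and was the exception among the 15. It had 53.4 in KCASP1Tg 4 and 4.23 to 11.6 in the 5 others of its group, against 6.1 to 88.2 in WT mice, with WT 4 the highest of all. It was not tested.

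*H2-Oa* codes for the alpha chain of H2-O (chromosome 17, 34092379 to 34095234) and varied most between mice. The signals were 143, 52.5, 171, 1020, 78.5 and 14.2 in KCASP1Tg 1 to 6, against 108, 92.7, 38.3 and 23.1 in WT 1 to 4. KCASP1Tg mice held both the highest and the lowest value. KCASP1Tg 4 was at 13 times the median of the other 9 mice, the highest ratio among the tested probe sets of the 7 genes. Its log2 fold change was 0.96 with a wide interval of -1.22 to 3.15 (limma, adjusted p = 0.9). This probe set passed the signal filter on 4 arrays, 3 of them from KCASP1Tg mice, and without KCASP1Tg 4 it was too dim to be tested and differed by 0.31.

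*Cd74*, the invariant chain, is encoded on chromosome 18 (60803849 to 60812652), away from the MHC. It had signals of 4390, 4084, 4985, 17185, 4162 and 4397 in KCASP1Tg 1 to 6, against 4246, 3469, 2993 and 2914 in WT 1 to 4. In 4 KCASP1Tg mice the signal was above every WT mouse, and the other 2 were below WT 1 and above WT 2 to 4. The mean was 6534 ± 5228 in KCASP1Tg mice and 3405 ± 612 in WT mice (SD, n = 6 and 4). The log2 fold change was 0.71 with an interval of -0.13 to 1.55 (limma, adjusted p = 0.704; exact Mann-Whitney p = 0.0381, unadjusted). Without KCASP1Tg 4 the mean of KCASP1Tg mice was 4404 ± 353 and the log2 fold change 0.38 with an interval of 0.09 to 0.68. That interval lay above 0, but over all tested probe sets the limma adjusted p was 0.429. *Cd74* was the only one of the 10 probe sets still tested in those 9 mice with an unadjusted limma p under 0.05 (p = 0.0158), which 4.98% of all passed as higher in KCASP1Tg mice, and its exact Mann-Whitney p there was 0.0635.

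*Ciita* codes for the transactivator (chromosome 16, 10480014 to 10531064). The brightest of its 3 probe sets had signals of 91.5, 95.4, 118, 445, 78.2 and 160 in KCASP1Tg 1 to 6, against 132, 89.3, 65.1 and 76.3 in WT 1 to 4. KCASP1Tg 4 was again the highest mouse, and the groups overlapped. Its log2 fold change was 0.61 with an interval of -0.37 to 1.60 (limma, adjusted p = 0.815). It passed the filter on 4 arrays, 3 of them from KCASP1Tg mice, and without KCASP1Tg 4 it was too dim to be tested and differed by 0.27. The other 2 probe sets reached 500 and 251 in KCASP1Tg 4, while the other 9 mice were at 23.5 to 74.5 and at 8.06 to 52.

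**Figure D2:**
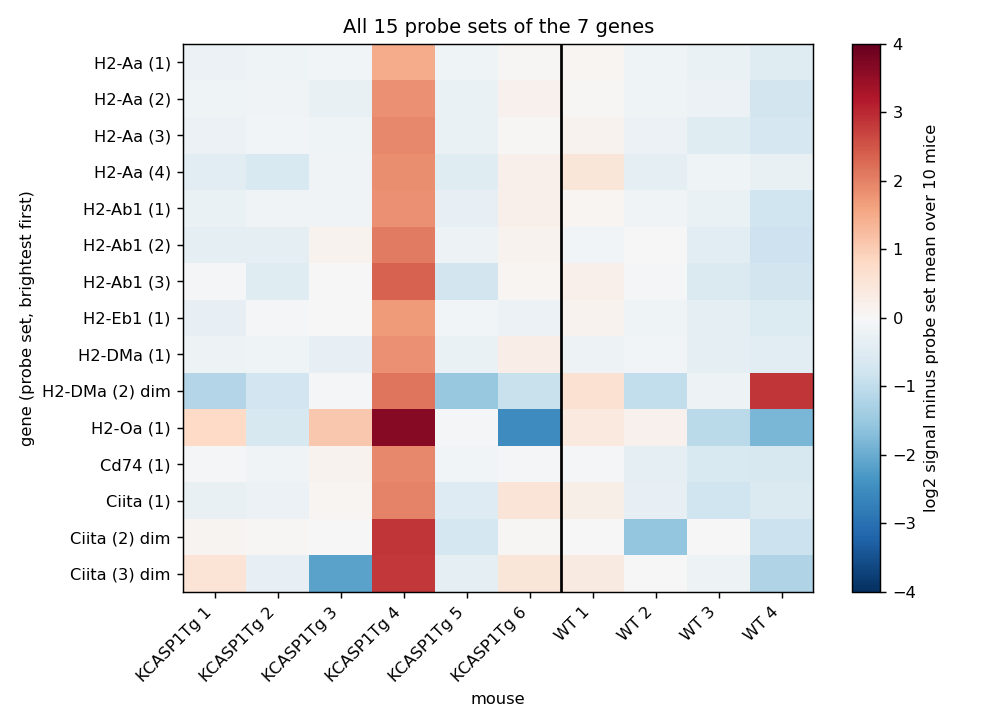
All 15 probe sets of the 7 genes in the 10 mice, as log2 signal centred on the 10-mouse mean of that probe set (colour scale), with KCASP1Tg mice left of the black line and WT mice right of it. The column of KCASP1Tg 4 is red throughout, and the dim second *H2-DMa* probe set is highest in WT 4 (88.2).

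Put together, the median log2 fold change of the 7 genes, each by its brightest probe set, was 0.48, with 0.00 over all tested probe sets. Without KCASP1Tg 4 the median was 0.15, again with 0.00 over all. No test was made over the genes as a group. The centred log2 signal averaged over the 7 genes was -0.08, -0.23, 0.09, 2.06, -0.23 and -0.25 in KCASP1Tg 1 to 6, against 0.09, -0.16, -0.54 and -0.75 in WT 1 to 4. Besides KCASP1Tg 4, the highest mice were KCASP1Tg 3 and WT 1 at the same value, and WT 3 and WT 4 were the lowest. WT 4 had the lowest signal on 9 of the 15 probe sets and was the mouse with the highest heart muscle genes, whose part in its low class II signals was not tested. Among the 21 pairs of the 7 genes, Pearson's r over the 10 mice ran from 0.64 to 0.99 with a median of 0.94. Over the 9 mice without KCASP1Tg 4 it ran from -0.35 to 0.96 with a median of 0.66, so that much of the shared course rests on that mouse.

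**Figure D3:**
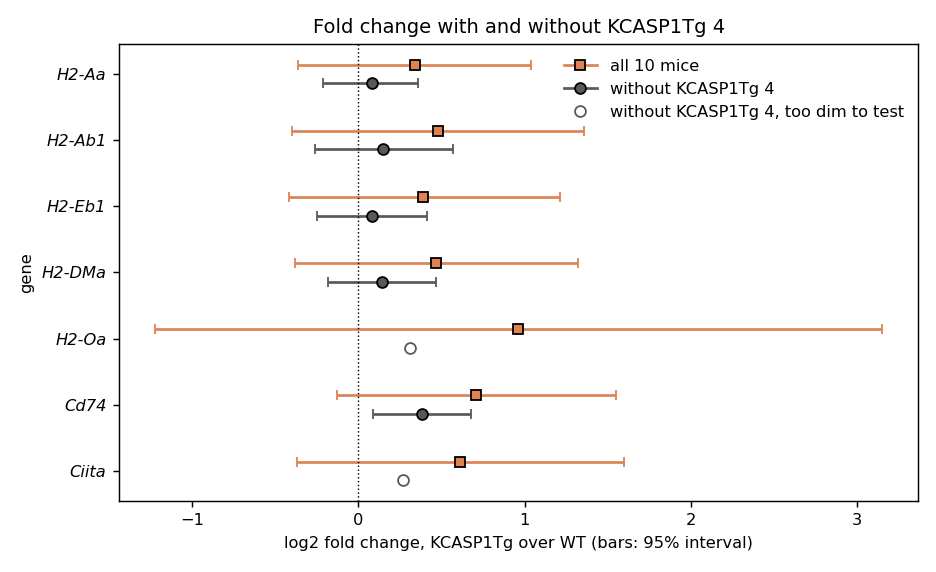
Log2 fold change of KCASP1Tg over WT for the 7 genes on the horizontal axis, with 95% intervals from limma, for all 10 mice (orange squares) and without KCASP1Tg 4 (grey circles, open where too dim to test). With all 10 mice every interval includes 0, and without KCASP1Tg 4 the one for *Cd74* (0.09 to 0.68) does not.

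Promoter sequences are shown because class II genes are known to share the X and Y boxes, and the part of these boxes in the signals was not tested. RefSeq windows from 250 bases before to 50 bases after the start (GRCm38.p6) were given for 4 of the 7 genes, *H2-Aa*, *H2-Eb1*, *H2-DMa* and *H2-Oa*, and not for *H2-Ab1*, *Cd74* and *Ciita*. Searched on both strands were the end of the X box as AACNGATG and the core of the Y box, the site of NF-Y, as ATTGG. A further run of 5 letters was added to this search after the sequences had been seen, and its last 3 letters can be the first of the X box end. It is GCAAC. The stretches from -130 to -31 are on the strand of each gene, with matches in the direction of the gene in capitals: *H2-Aa* at chr17:34287854-34287953 (minus strand), *H2-Eb1* at chr17:34305737-34305836, *H2-Oa* at chr17:34092249-34092348 and *H2-DMb2*, a beta chain of H2-DM, at chr17:34145119-34145218 (plus strand).
H2-Aa: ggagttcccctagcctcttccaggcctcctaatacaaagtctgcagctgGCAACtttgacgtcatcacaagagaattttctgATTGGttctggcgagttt
H2-Eb1: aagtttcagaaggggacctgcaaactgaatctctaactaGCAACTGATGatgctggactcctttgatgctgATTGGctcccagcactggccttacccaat
H2-Oa: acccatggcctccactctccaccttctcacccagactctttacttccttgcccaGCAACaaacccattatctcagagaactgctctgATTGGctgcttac
H2-DMb2: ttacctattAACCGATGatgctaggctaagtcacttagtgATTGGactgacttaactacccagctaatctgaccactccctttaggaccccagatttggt

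In *H2-Eb1* the X box end began at -89 and the Y box core at -59, 30 bases apart, and a second core lay on the opposite strand at -35, in lower case at the end of the stretch. In *H2-DMb2* the pair began at -121 and -90, 31 bases apart. *H2-Aa* and *H2-Oa* had no match to the X box end in the window, but GCAAC stood 33 bases before ATTGG in both. The letters alone are common. Of 32851 windows of 300 bases, 2.32% held the X box end, 37.4% the Y box core and 35.2% GCAAC. The pair in order, with first bases 25 to 40 apart, a spacing set with these hits known, stood in 5 windows, or 0.0152%, and 4 of the 5 belong to class II chains (*H2-Eb1*, *H2-DMb1*, *H2-DMb2* and *H2-Eb2*) and the fifth to *BC051142*. GCAAC followed by ATTGG at that spacing stood in 120 windows, or 0.365%. The 2 windows of *H2-DMa* held no X box end, and 1 of them held a single Y box core. A match of letters is a description of the sequence and not of a bound factor.

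The ratio of *Cd74* to a chain it guards separated the genotypes for the brightest *H2-Aa* probe set and for the 1 probe set of *H2-Eb1*. The log2 signal of *Cd74* minus that of *H2-Aa* was -0.28, -0.47, -0.22, -0.03, -0.42 and -0.57 in KCASP1Tg 1 to 6, against -0.65, -0.70, -0.82 and -0.64 in WT 1 to 4. Against *H2-Eb1* it was 0.48, 0.13, 0.36, 0.41, 0.19 and 0.40 in KCASP1Tg 1 to 6, against -0.04, 0.00, -0.04 and 0.12 in WT 1 to 4. In both cases every KCASP1Tg mouse was above every WT mouse, by mean differences of 0.37 and 0.32, and KCASP1Tg 4 was no exception, since without it they were 0.31 and 0.30. The level of such a difference depends on the probes, and only its change between mice can be read. Taken against *H2-Aa*, 0.499% of all tested probe sets separated the groups in this direction, and 0.453% against *H2-Eb1*. The separation was not general to the chains, however. Of the 8 probe sets of *H2-Aa*, *H2-Ab1* and *H2-Eb1*, 2 separated the groups and 6 did not, with mean differences of 0.13 to 0.55. The 6 included every *H2-Aa* probe set but the brightest. In these the lowest KCASP1Tg mouse was at 0.21, 4.49 and 0.53, against 0.52, 4.76 and 0.67 in the highest WT mouse. Against *H2-Eb1* the nearest mice of the 2 groups were KCASP1Tg 2 at 0.13 and WT 4 at 0.12. Against *H2-Ab1* the range was 0.71 to 1.23 in KCASP1Tg mice, against 0.63 to 1.12 in WT mice. Against *H2-DMa* and *Ciita* the mean differences were 0.24 and 0.10 and the groups overlapped, as they did against *H2-Oa* with -0.25. The ratios were formed after the values had been seen, and no p-value is given for them.

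**Figure D4:**
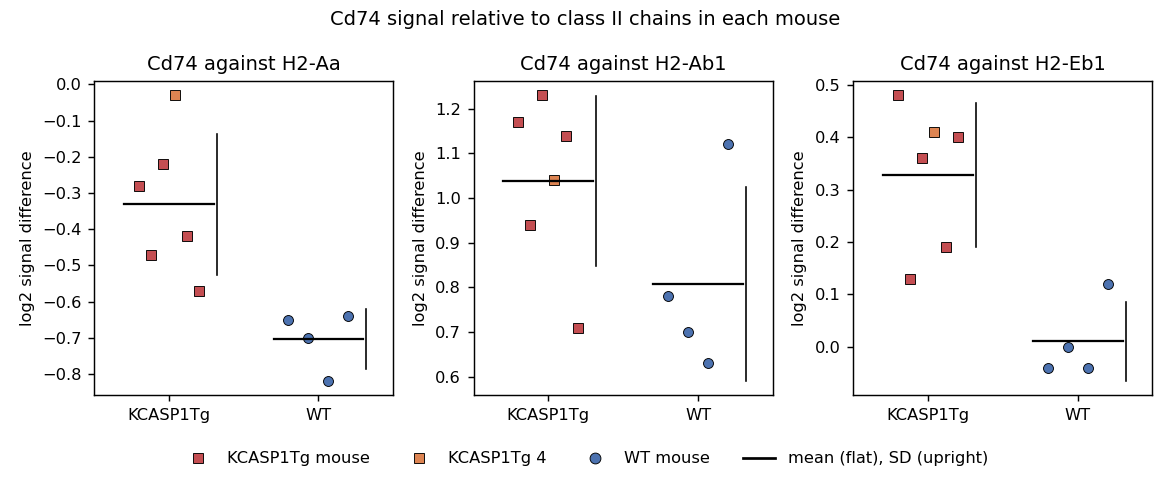
Log2 signal of *Cd74* minus log2 signal of the brightest probe set of *H2-Aa*, *H2-Ab1* or *H2-Eb1* in each mouse (vertical axes, KCASP1Tg left and WT right), with the mean as a flat line and the SD as an upright line. The groups do not overlap against *H2-Aa* and *H2-Eb1* and overlap against *H2-Ab1*, and KCASP1Tg 4 in orange lies near or inside the range of the other KCASP1Tg mice.

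Further class II chains were taken as a list. Of 4 measured chains 1 was tested and 0 were called. *H2-DMb2* had 401, 139, 286, 1829, 137 and 294 in KCASP1Tg 1 to 6, against 163, 188, 135 and 120 in WT 1 to 4 (log2 fold change 1.12, limma adjusted p = 0.725). KCASP1Tg 4 was at 11.2 times the median of the others, and without it the log2 fold change was 0.62. The other tested probe sets of *H2-DMb2* had log2 fold changes of 0.64 and 1.30, which were 0.12 and 0.71 without KCASP1Tg 4. *H2-Ob*, the partner of H2-Oa, had 1420 in KCASP1Tg 4, 43.5 to 145 in the 5 others of its group and 37.9 to 90.1 in WT mice. *H2-DMb1* was not analysed here.

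Among 8 measured genes of loading, processing and turnover, limma called 0 in either direction. In 2 of the 8 every KCASP1Tg mouse was above every WT mouse, where this held for 1.98% of all tested probe sets. *Ctss*, the cathepsin that trims the invariant chain, had signals of 2960, 2596, 3707, 9680, 2459 and 2678 in KCASP1Tg 1 to 6, against 2011, 1672, 1451 and 1173 in WT 1 to 4. Every KCASP1Tg mouse was above every WT mouse. The log2 fold change was 1.18 (limma, adjusted p = 0.421; exact Mann-Whitney p = 0.00952, the smallest that these groups allow), and 0.88 without KCASP1Tg 4. *Marchf1*, a ubiquitin ligase that takes class II off the surface, had 116, 101, 127, 424, 82.9 and 83.5 in KCASP1Tg 1 to 6, against 62.4, 63.2, 37.4 and 65.5 in WT 1 to 4. Its log2 fold change was 1.20 (limma, adjusted p = 0.491), and 0.85 without KCASP1Tg 4. *Ifi30*, a thiol reductase of the endosome, had log2 fold changes of 0.64 and 0.29 with and without KCASP1Tg 4, and *Lgmn*, an asparaginyl endopeptidase, 0.34 and 0.22. The groups overlapped in both genes.

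Of 15 measured genes of the CIITA pathway and the factors at class II promoters, 0 were called. The subunits of RFX, which binds the X box, had log2 fold changes of 0.12 for *Rfx5*, 0.08 for *Rfxap* and -0.02 for *Rfxank*, which were 0.03, 0.04 and 0.10 without KCASP1Tg 4. The genes with the smallest limma p were *Ifngr1*, a chain of the interferon gamma receptor (0.52, adjusted p = 0.494), *Spi1*, the myeloid and B cell factor PU.1 (0.80, adjusted p = 0.666), *Irf4*, a factor of B cells and plasma cells (-0.72, adjusted p = 0.722) and *Jak2*, a kinase of the interferon gamma receptor (0.23, adjusted p = 0.765). Without KCASP1Tg 4 these values were 0.45, 0.52, -0.86 and 0.14. *Irf8*, a factor of B cells and dendritic cells, had 2282 in KCASP1Tg 4, 179 to 290 in the 5 others of its group and 130 to 240 in WT mice. It was the only gene of this list that KCASP1Tg 4 held at 2 times or more every other mouse.

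Of the co-stimulatory genes, 6 were measured, 4 were tested and 0 were called. *Cd86*, the ligand of CD28, had 157, 191, 167, 656, 184 and 150 in KCASP1Tg 1 to 6, against 153, 118, 97.8 and 75.4 in WT 1 to 4. In 5 KCASP1Tg mice the signal was above all WT mice and the sixth was just below WT 1. This gave a log2 fold change of 0.98 (limma, adjusted p = 0.568), and 0.65 without KCASP1Tg 4. *Cd40*, which takes help from T cells, had log2 fold changes of 0.78 and 0.45 with and without that mouse.

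MHC class I genes, which show peptides from inside the cell to CD8+ T cells, were read for comparison. Of 11 genes tested, limma called 0, and 11 of 11 had a log2 fold change above 0, with a median of 0.47, and 0.34 without KCASP1Tg 4. KCASP1Tg 4 was the highest mouse in 9 of the 11, where it was highest on 23.2% of all tested probe sets. It was at 2 times or more every other mouse in 0 of the 11, near the 2.43% of all tested probe sets. *Psmb9* and *Tap1* came to 1.93 and 1.91 times the next mouse. In the class II genes the level of 2 times was reached in 7 of the 7 by their brightest probe sets. Of those 7, *H2-Oa* and *Ciita* passed the filter only with KCASP1Tg 4 included. Against the median of the other 9 mice, KCASP1Tg 4 ran from 1.07 times for beta-2 microglobulin (*B2m*) to 3 times for *Tap1*. The heavy chain *H2-K1* was at 1.29 times, *Psmb8* at 2.32, *Nlrc5* at 2.52 and *Psmb9* at 2.76 times. The brightest *H2-Aa* probe set had 3.12 times. *Tap1*, a chain of the peptide transporter, was the 1 gene in which the groups did not overlap, with 535 to 1602 in KCASP1Tg mice, against 434 to 506 in WT mice (log2 fold change 0.64, limma adjusted p = 0.618, and 0.41 without KCASP1Tg 4). Over all tested probe sets, 1.98% separated the groups in this direction. *Nlrc5*, the class I transactivator, had a log2 fold change of 0.76 (limma, adjusted p = 0.505) and *Psmb8*, a subunit of the immunoproteasome, 0.62 (adjusted p = 0.507).

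Markers of cells that carry class II were read in the same mice. None of the marker lists had a gene that limma called. The summed signal of 10 B cell genes was 2797, 1057, 2028, 17464, 902 and 1315 in KCASP1Tg 1 to 6, against 1721, 936, 848 and 978 in WT 1 to 4. *Ms4a1*, which codes for CD20, had 5721 in KCASP1Tg 4, 142 to 738 in the 5 others of its group and 131 to 334 in WT mice. The sum of 9 T cell genes was 7001 in KCASP1Tg 4, 544 to 1083 in the 5 others of its group and 551 to 783 in WT mice. In their sums the lymphocyte lists thus set KCASP1Tg 4 apart. It was at 2 times or more every other mouse in 7 of 8 tested B cell genes and 3 of 4 tested T cell genes, against 2.43% of all tested probe sets. Of these genes *Fcer2a* passed the filter only with KCASP1Tg 4 included. The exceptions were *Pax5*, at 1.66 times the next mouse, and *Cd8a*, with 206 in KCASP1Tg 4 and 288 in WT 4.

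The sum of 12 macrophage genes was 14987, 19037, 27412, 35602, 17519 and 12568 in KCASP1Tg 1 to 6, against 15267, 12163, 11079 and 13381 in WT 1 to 4. KCASP1Tg 4 had the highest sum here too and was the highest mouse in 8 of the 12 genes, against 23.2% of all tested probe sets. It was at 2 times or more every other mouse in 0 of the 12, near the 2.43% of all tested probe sets. Its signals were 1.23 to 3.59 times the median of the other 9 mice, with the highest ratio in *Cd68*. All 12 had a log2 fold change above 0, also without KCASP1Tg 4, with medians of 0.62 and 0.48. *Fcgr1*, an Fc receptor of macrophages, had signals of 177 to 289 in KCASP1Tg mice, against 99.8 to 136 in WT mice (log2 fold change 0.83, limma adjusted p = 0.109). The 9 dendritic cell genes had fold changes in both directions. Their sum was 1480 to 3630 in KCASP1Tg mice, against 1243 to 1526 in WT mice, and of the 5 tested 3 had a log2 fold change above 0, with a median of 0.59, and 0.34 without KCASP1Tg 4. *Cd209a*, the mouse gene named for DC-SIGN, had -0.59 and *Zbtb46*, a factor of classical dendritic cells, -0.13, and KCASP1Tg 4 was at 0.8 and 0.859 times the median of the other mice in them. *Clec10a*, a lectin that macrophages also carry, had 635 to 1321 in KCASP1Tg mice, against 391 to 539 in WT mice (0.87, adjusted p = 0.188). *Ccr7*, the receptor that guides dendritic cells and T cells to lymph nodes, had 784 in KCASP1Tg 4, 5.64 to 30.8 in the 5 others of its group and 7.07 to 22 in WT mice.

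Genes of lymph node stroma were read as well. *Glycam1*, a product of lymph node venules, had 22908 in KCASP1Tg 4, 4.82 to 622 in the 5 others of its group and 3.05 to 127 in WT mice. *Cxcl13*, the chemokine that draws B cells into follicles, had 4253, 2152, 4419, 9023, 3149 and 2208 in KCASP1Tg 1 to 6, against 1205, 1170, 369 and 246 in WT 1 to 4 (log2 fold change 2.63, limma adjusted p = 0.135). Here all KCASP1Tg mice were above all WT mice, where this held for 1.98% of all tested probe sets. Without KCASP1Tg 4 the log2 fold change was 2.37. *Ccl21a* and *Ccl19* were not analysed here. The summed class II signal of the 7 genes was 59681 in KCASP1Tg 4, 15586 to 17895 in the 5 others of its group and 12028 to 18531 in WT mice. The part of lymph node tissue or lymphocytes in the class II signals of KCASP1Tg 4 was not tested.

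**Figure D5:**
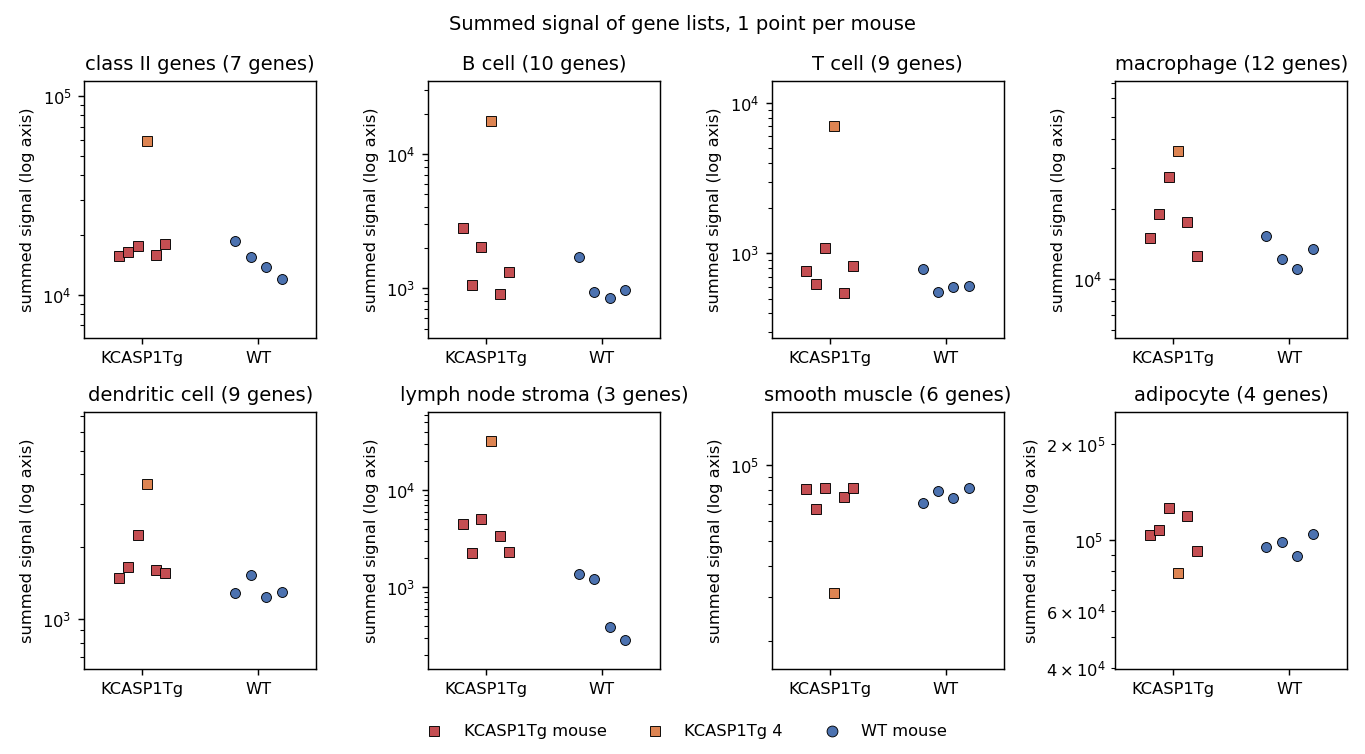
Summed signal of the 7 class II genes and of 7 marker lists in each mouse (log axes, KCASP1Tg left and WT right, 1 point per mouse). KCASP1Tg 4, in orange, is highest for class II, B cell, T cell, macrophage, dendritic cell and lymph node stroma genes and lowest for smooth muscle (31012) and adipocyte genes (79167).

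By likeness to the mean centred course of the 7 genes over the 10 mice, the nearest of 12288 other genes were *Pde7a* (Pearson's r = 0.991), *Ikzf1* (0.984), *Btla* (0.981), *Ifi30* (0.980), *Epsti1* (0.979), and *Ly86*, *Birc3* and *Spcs3* (0.977 each). KCASP1Tg 4 was highest in all 8, which follows from the choice, since the course itself peaks in that mouse. Without it, r over the 9 other mice was 0.92 for *Pde7a*, 0.91 for *Ikzf1* and 0.77 to 0.88 for the others. *Ikzf1*, a factor of the lymphoid lineage, had 2270 in KCASP1Tg 4, and *Btla*, an inhibitory receptor of lymphocytes, had 3808. *Ly86*, the MD-1 protein of B cells and myeloid cells, had every KCASP1Tg mouse above every WT mouse, with 4161 in KCASP1Tg 4 and 389 to 694 in WT mice. The values are a description, and the mice share 1 array that dominates them.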

How the data were processed

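Total RNA of the abdominal aorta of 6 KCASP1Tg and 4 WT mice was hybridised to Affymetrix GeneChip mouse arrays. The deposited signal intensities are MAS5.0 values that the authors scaled per array, and the mean after trimming 2% at each end was 500.0 on every array. Between 54.9% and 58.3% of probe sets reached a signal of 100. For arrays, their number limits the precision. Of 45101 probe sets, 64 controls were left out, and 34945 of the others have 1 symbol in the platform annotation. Following the methods, signals below 1 were set to 1 before log2. Tests were limma 3.58.1 in R 4.3.3 with genotype as the term, and a two-sided exact Mann-Whitney test. Steps were tested on simulated data with known changes. A gene is given by its brightest probe set. Figures used Python 3.11.15 and matplotlib 3.10.9. No batch is given in the sources used here.

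The members and gene lists were chosen with earlier results of these data known. Named were the 7 genes with every probe set, *H2-Ea*, from each other list the called genes and up to 4 of smallest limma p, and the 8 genes of greatest likeness. *Irf8*, *H2-Ob*, *H2-K1*, *B2m*, the RFX subunits, *Ms4a1*, *Pax5*, *Fcer2a*, *Cd8a*, *Cd209a*, *Zbtb46*, *Ccr7* and *Glycam1* were named after their values were seen. Alternatives covered the floor, a pseudocount, the signal filter, normalization, the variance model, array weights, the replicate number as a block, left-out mice, the threshold and averaged probe sets.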

Additional observations from a re-analysis of the deposited data

Results flagged for a closer look

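A mouse was looked at again where its distance to the nearest mouse of its group, as a share of the group's whole range, passed Dixon's 95% value. Distances and ranges were taken on log2 values, also for the sums. This was so in 15 of 50 groups of values looked at, and chance gives about 1 in 20. KCASP1Tg 4 was the mouse in 14 of the 15. It was the highest KCASP1Tg mouse on the 4 probe sets of *H2-Aa*, with shares of 0.827, 0.788, 0.855 and 0.673, and on the 3 of *H2-Ab1*, with 0.761, 0.794 and 0.738. The same held for *H2-Eb1* (0.851), the brighter probe set of *H2-DMa* (0.715), *Cd74* (0.861) and 1 probe set of *Ciita* (0.768). Its sums of T cell genes (0.731) and lymph node stroma genes (0.690) were also the highest of the KCASP1Tg mice, and its sum of smooth muscle genes (0.799) the lowest. The remaining case was the sum of heart muscle genes in WT 4 (0.875), the highest WT mouse. These groups of values share the same mice and are not independent of each other.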

How the results depend on the processing

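Over 25 alternative settings no tested probe set of the 7 genes was called, with or without KCASP1Tg 4. By the brightest probe set of each gene, the log2 fold changes kept their direction. *H2-DMa* was -0.24 as the mean of its probe sets, the dim one included, and the dimmest *H2-Aa* probe set was 0.16 with KCASP1Tg 4 and -0.20 without it. *Cd74* ran from 0.38 (without KCASP1Tg 4) to 0.89 (replicate block), with adjusted p of 0.346 to 1. The median of the 7 genes, 0.48, ran from 0.15 (without KCASP1Tg 4) to 0.60 when each mouse was left out in turn, and was 0.17 with array weights and 0.41 with WT 1 to 3 and KCASP1Tg 1 to 5. The 18 probe sets called over the whole array were 10 to 69 when each mouse was left out (10 without KCASP1Tg 1, 41 without KCASP1Tg 6, 69 without KCASP1Tg 4), 267 with array weights, 30 with WT 1 to 3 and KCASP1Tg 1 to 5, 10 at an adjusted p under 0.01 and 0 by the exact Mann-Whitney test. Chosen after seeing the data, leaving out WT 1 and WT 3 gave 0 and leaving out WT 4, KCASP1Tg 1 and KCASP1Tg 2 gave 2, with medians of 0.67 and 0.61 for the 7 genes. The cause of these shifts was not tested.

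With the replicate number as a block, 0 probe sets were called over the whole array, 0 of the 7 genes, and their median was 0.61. Mice of the same number deviated together with correlations of 0.11, -0.31, -0.43 and -0.33, so the numbers were not taken as a pairing. The number of arrays limits what can be seen: the interval of *H2-Aa* reached a log2 fold change of 1.04 and that of *H2-Oa* 3.15. The dim probe sets of *Ciita* and *H2-DMa* were not tested.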
